A study of Drosophila melanogaster with 12 samples.

Results

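Gene expression was compared between 2 sets of Drosophila melanogaster ovaries, virgin young controls and NGVP16 young controls, each with n = 2 libraries of poly(A) mRNA. The members are the 4 libraries labelled as young controls, of 12 in the series. A pair whose titles contain Virgin (DcrVirgin_S4 and VIRGIN_S16) was set against a pair whose titles contain NGVP16 (1_NGVP16_1_S1 and 2_NGVP16_2_S2). Both pairs carry the same genotype entry, Young control, and both were dissected 1 to 3 days after the adults emerged. The labels give no driver, allele or mating state beyond these words, and Dcr stands in the title of virgin control 1 but not of virgin control 2. The virgin titles carry no replicate number and were numbered in the order of deposit. They may therefore not be replicates of 1 genotype, which bears on every mean, SD and p-value of the virgin pair below. The remaining 8 libraries, 2 a set, are ovaries with SETDB1, wde or Nup154 knocked down in the germline (GKD) and a pair labelled as adult control. Any driver, Dcr transgene, mating state and library series that differ between the young control pairs cannot be told apart. Nothing in the labels says that the libraries of a pair came from separate flies, so p-values measure no more than the spread of the libraries, part or all of which may be technical.

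Knockdown in the fly germline commonly uses a Gal4 activator expressed in germ cells, which switches on a hairpin transgene behind UAS sites. Extra Dicer-2, the nuclease that cuts long double-stranded RNA into siRNAs, is often co-expressed to strengthen silencing, so control ovaries may carry a driver, a Dicer transgene or both. An ovary holds germ cells, the somatic follicle cells that secrete yolk proteins and eggshell, and a muscle sheath. Fat body, blood cells (hemocytes), gut and nerve lie close by and can come along in a dissection.

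The virgin libraries held 20162235 and 7351948 counts and the NGVP16 libraries 8155977 and 11609262. All 4 had high levels of osk, a germline mRNA that patterns the oocyte, at 1778 to 2728 CPM (counts relative to a library size adjusted by TMM), and of tj, a follicle cell transcription factor, at 244 to 393 CPM. Mst87F, a sperm protein gene, was at 0 in all 4. Of the other male markers, roX1 had 12 and 1 counts in the virgin and 16 and 11 in the NGVP16 libraries. roX2 had 3 counts in NGVP16 control 2 and 0 in the others. The adult pair stood apart from the other 10 libraries. Its antisense RNA genes took 39.1% and 40.7% of the counts, against 0.00824% to 0.0182% in the others, and Act5C, a cytoplasmic actin, had 9 and 22 counts. Its levels are not used in the comparison, but it shares in the estimate of spread, so counts of changed genes are also given without it.

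The virgin ovaries had far more Dcr-2 and Hsp70Bb mRNA than the NGVP16 ovaries, and held little mRNA of a larger group of genes that the NGVP16 ovaries expressed at low to moderate levels. Of 10790 genes tested, 38 were higher in the virgin pair (0.352%) and 178 were lower (1.65%), together 216 (2.00%), by edgeR's quasi-likelihood test at a Benjamini-Hochberg adjusted p of 0.05. The falls were deep, with a median log2 fold change of -3.57 among the 178 lower genes and of 2.12 among the 38 higher genes. At least an 8-fold difference was fitted for 115 of the lower and 11 of the higher genes. The median over all genes tested was -0.06. All 216 had no overlap between the pairs, a pattern found in 37.9% of the genes tested. Named protein-coding genes made up 22 of the higher and 90 of the lower genes.

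**Figure D1:**
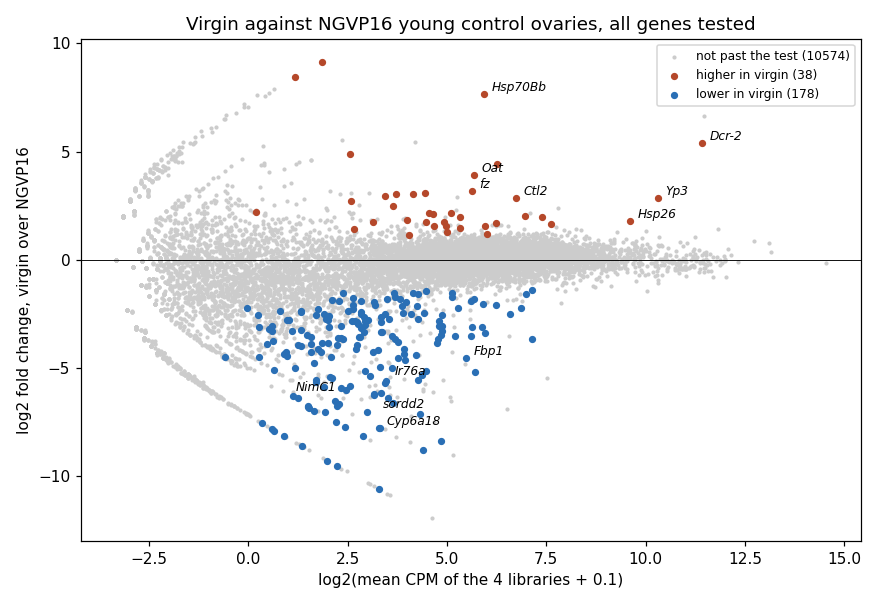
Log2 fold change (virgin over NGVP16) of each of 10790 genes against its mean level over the 4 libraries, in CPM on a log2 scale; red and blue points passed the test. The 178 lower genes lie mostly at low to moderate levels, while Dcr-2, Yp3 and Hsp26 are the most abundant of the higher genes; the curved edges are genes with 0 counts in 1 pair, whose fitted fold is no measure of size.

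The number of calls depended on single libraries. Leaving out virgin control 1 or virgin control 2 left 24 and 26 calls, and leaving out NGVP16 control 1 or 2 gave 260 and 2205, of which 1261 of the 2205 were higher. Without the adult pair 166 of 10105 genes (1.64%) were called, 36 higher and 130 lower. The 4 libraries fitted alone, with 2 residual degrees of freedom, gave 0 calls by the same edgeR test and 788 genes with an unadjusted p under 0.05. The calls that held in all 4 fits with a library left out numbered 17, and each other called gene named below was lost without a virgin library. These 17 were Dcr-2, Hsp70Bb, Oat, fz, Ctl2 and CG14985 among the higher genes. Among the lower genes they were NimC1, sordd2, Ir76a, Gal, Cadps, CG6362, CG9400, CG9512, CG10621, CG8539 and CG6912.

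Dcr-2 (FBgn0034246, dm6 chromosome 2R, 17574979 to 17581525) had the highest level of the 38 higher genes. It was at 4775 and 5898 CPM in virgin controls 1 and 2, and at 56.4 and 200 CPM in NGVP16 controls 1 and 2. Both virgin libraries were high, including the library whose title does not name Dcr, and the pairs lay far apart. The means were 5336 ± 794 and 128 ± 101 CPM (SD, n = 2), a log2 fold change of 5.38 ± 0.57 (SE; edgeR adjusted p = 0.00155). The rise kept its call without each library in turn. Dcr-2 overlaps a gene on the opposite strand, as do fz, Ir76a, Gal, CG9512 and CG9400 among the 17 calls that held. The strand setting of the counts is not given in the sources used here.

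The RNA interference and microRNA machinery also includes the Argonautes and the dicer of microRNAs. Of 17 tested, Dcr-2 alone was called, where 2.00% of all genes were, and the median log2 fold change was 0.16, which turned negative under ribosomal protein scaling and without NGVP16 control 1. AGO2, the Argonaute that carries siRNAs, was at 273 and 305 CPM in the virgin libraries and 79.5 and 222 in the NGVP16 libraries (0.94 ± 0.40, edgeR adjusted p = 0.272). Its NGVP16 libraries were farther from each other than the virgin libraries were. Dcr-1, which cuts microRNA precursors, was at 65.6 and 95.5 CPM against 26.5 and 79.3 (0.60 ± 0.44, edgeR adjusted p = 0.52), and here the pairs overlapped. Of 31 piRNA pathway genes none was called, a count near the 2.00% of all genes. Their median of -0.12 turned positive without NGVP16 control 2.

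Of 6 genes linked to transgenes, Dcr-2 alone was called, where 2.00% of all genes were. The white gene w, whose minigene marks many transgenes, was at 273 and 239 CPM in the virgin and 223 and 200 in the NGVP16 libraries (0.27 ± 0.27, edgeR adjusted p = 0.64). nanos, a germline translational repressor whose promoter is used in germline drivers, was at 313 and 397 CPM against 94.4 and 180 (1.37 ± 0.38, edgeR adjusted p = 0.106). The nanos pairs did not overlap, and it passed the test by the DESeq2 Wald test, with the length trend removed and without NGVP16 control 2. v, the tryptophan oxygenase gene that marks some hairpin lines, was near 0 in all 4 libraries, at no more than 0.576 CPM. ry, an eye colour gene that also marks transgenes, was at 0.365 and 1.15 CPM against 9.64 and 5.01 and did not pass the test (-3.46 ± 0.77, edgeR adjusted p = 0.0554), although its pairs did not overlap. y, a body colour gene, was at no more than 0.25 CPM in any of the 4. The targets of the knockdowns elsewhere in the series were not called. Nup154, a nuclear pore protein, was at 0.46 ± 0.32 on the log2 scale (edgeR adjusted p = 0.506). egg, which encodes SETDB1, was at 0.38 ± 0.35 (0.614 by the same adjustment) and wde, its cofactor, at -0.08 ± 0.44 (0.983). The last 2 changed sign in some settings.

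**Figure D2:**
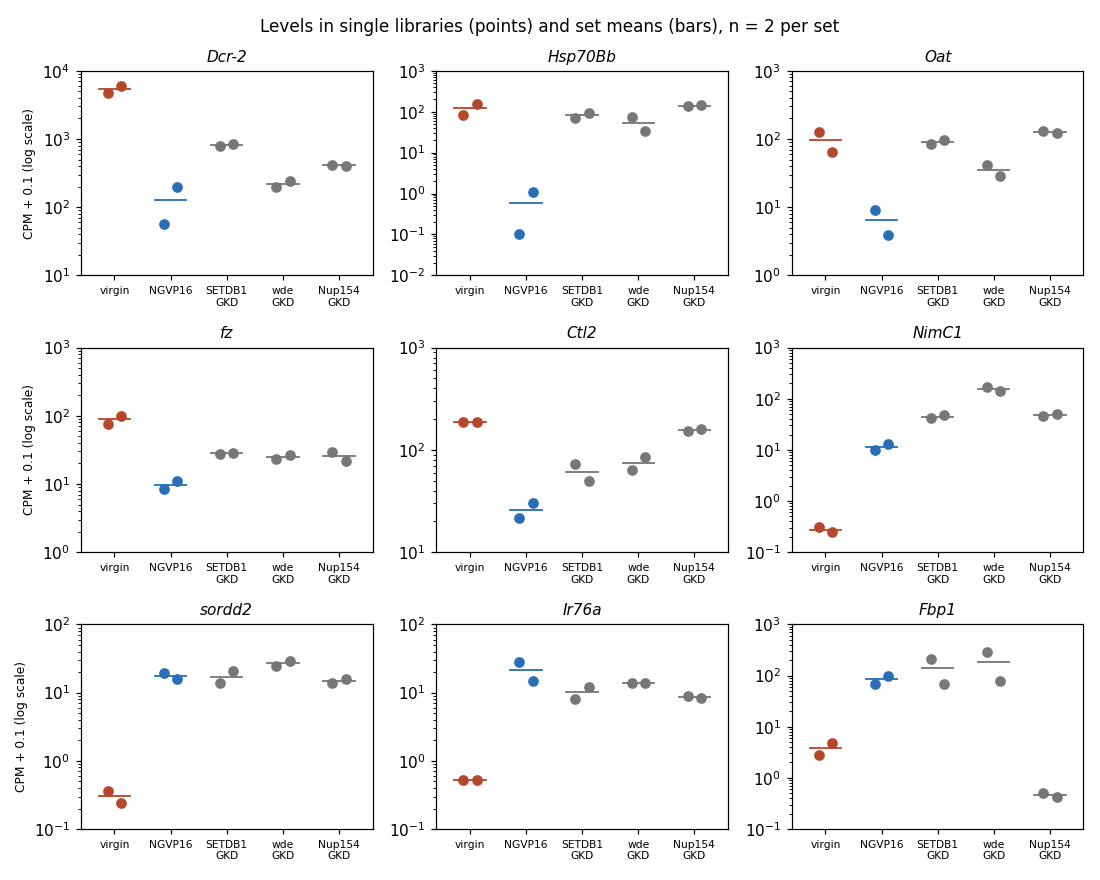
Levels of 9 genes in single libraries (points) and set means (bars) of the young control and knockdown sets, in CPM plus 0.1 on log axes that differ between panels, n = 2 per set. Dcr-2 and Hsp70Bb are far higher in both virgin libraries than in both NGVP16 libraries; NimC1, sordd2 and Ir76a are under 1 CPM in both virgin libraries and in no other library shown.

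Heat shock genes encode chaperones that hold or refold unfolded proteins. Of 18 tested, 3 were higher in the virgin pair and 1 was lower, against 0.352% and 1.65% of all genes, and their median log2 fold change was 0.83. Hsp70Bb (FBgn0013278, chromosome 3R, 12505793 to 12508139), an inducible chaperone gene, was at 83.7 and 157 CPM in the virgin libraries and at 0 and 1.00 CPM in the NGVP16 libraries. It had 1604 and 1089 counts against 0 and 12, so the NGVP16 pair stood at or near 0. The log2 fold change was 7.68 ± 0.84 (edgeR adjusted p = 0.00358).

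The other Hsp70 copies were low in all 4 libraries and none passed the test. Hsp70Bc was at 8.92 and 8.21 CPM in the virgin libraries and 2.06 and 0.167 in the NGVP16 libraries. Hsp70Aa was at 2.09 and 2.45 CPM against 3.85 and 1.08, and its pairs overlapped. The log2 fold changes were 3.99 for Hsp70Bbb, 3.05 for Hsp70Bc, 1.82 for Hsp70Ba, 0.67 for Hsp70Ab and -0.10 for Hsp70Aa. The Hsp70 copies are nearly identical in sequence, so the split of reads between them is uncertain. In the knockdown sets Hsp70Bb was at 32.8 to 146 CPM, so the NGVP16 pair was the low set rather than the virgin pair the high set.

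Hsp26, a small heat shock protein that the ovary makes without stress, was at 1256 and 1163 CPM in the virgin and 399 and 290 in the NGVP16 libraries (1.81 ± 0.33, edgeR adjusted p = 0.0246). Hsp68, an inducible relative of Hsp70, was at 56.6 and 35.6 CPM against 13.4 and 14.5 (1.73 ± 0.31, edgeR adjusted p = 0.0246). Both rose with no overlap of the pairs. Hsp67Ba, at 1.25 and 0.864 CPM against 7.20 and 3.76, went the other way (-2.28 ± 0.43, edgeR adjusted p = 0.0257; 0.0517 without NGVP16 control 1). Hsp83, the fly Hsp90, was at 9412 and 8104 CPM against 3684 and 5874 and did not pass the test (0.87 ± 0.39, edgeR adjusted p = 0.289).

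Several metabolic and membrane protein genes rose beside them. Oat (FBgn0022774, chromosome 3L, 19647280 to 19649851), ornithine aminotransferase, was at 125 and 64.7 CPM in the virgin libraries and 8.99 and 3.75 in the NGVP16 libraries (3.92 ± 0.49, edgeR adjusted p = 0.00477). fz (FBgn0001085, chromosome 3L, 14274343 to 14368639), the Frizzled receptor of Wnt and planar polarity signalling, was at 77.0 and 99.6 CPM against 8.48 and 10.9 (3.18 ± 0.32, edgeR adjusted p = 0.00155). Ctl2 (FBgn0039637, chromosome 3R, 29123370 to 29128247), of the choline transporter-like family, was at 186 and 187 CPM against 21.5 and 30.1 (2.85 ± 0.32, edgeR adjusted p = 0.00358). All 3 were well separated and kept their calls without each library, though fz and Ctl2 did not pass under ribosomal protein scaling.

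Smaller rises included a pair of PGRP genes, a family of the immune response to bacterial cell walls. PGRP-LC, a receptor of the Imd pathway, was at 39.5 and 40.8 CPM in the virgin and 9.76 and 9.01 in the NGVP16 libraries (2.1 ± 0.31, edgeR adjusted p = 0.00852). PGRP-LA, its neighbour on chromosome 3L, was at 12.4 and 8.21 CPM against 0.514 and 2.50 (2.70 ± 0.52, edgeR adjusted p = 0.0283). None of the 28 tested genes in the list of antimicrobial peptides and immunity was called, a count near the 2.00% of all genes. Rises of 1.75 to 2.50 on the log2 scale were also found for bgm, an acyl-CoA synthetase, mfas, a cell adhesion protein, Mvb12, a subunit of the ESCRT-I sorting complex, TBC1D16, a Rab regulator, GABA-B-R3, a GABA receptor subunit, and Ugt36E1, a UDP-glycosyltransferase. The call of TBC1D16 was lost without the adult pair, and that of GABA-B-R3 without NGVP16 control 1.

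Yolk and eggshell genes, made late in oogenesis, mostly did not pass the test. Yp3 (FBgn0004047, chromosome X, 13759546 to 13761547), a yolk protein, was at 1815 and 2611 CPM in the virgin and 383 and 233 in the NGVP16 libraries. Both virgin libraries were above both NGVP16 libraries (2.84 ± 0.56, edgeR adjusted p = 0.0299), but the call was lost without either virgin library, without NGVP16 control 1 and without the adult pair. Yp1 was at 1162 and 1773 CPM against 754 and 397, and Yp2 at 4851 and 5635 against 2087 and 1786. Their log2 fold changes were 1.35 ± 0.52 and 1.44 ± 0.56, neither past the test (edgeR adjusted p = 0.226 and 0.227). Yp3 was the only member called of 9 yolk and lipoprotein uptake genes, whose median was 0.51, where 2.00% of all genes were called.

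Of 15 vitelline membrane and eggshell assembly genes none was called, with a median of 0.67. None of 9 chorion genes was called either. Their median of -1.36 rested on NGVP16 control 1 and turned to 0.69 without it. Cp36, a chorion protein, was at 101 and 169 CPM in the virgin libraries and at 601 and 127 in the NGVP16 libraries, so NGVP16 control 1 alone was high. Oocyte and maternal mRNAs (0 of 32 called, median 0.32), early germ cell genes (0 of 15), ecdysone genes (0 of 16) and ovulation genes (0 of 14) gave no calls. Of all genes 2.00% were called. Lists this short would hold few or no calls at that share, so these counts and those of the eggshell lists say little about their members.

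**Figure D3:**
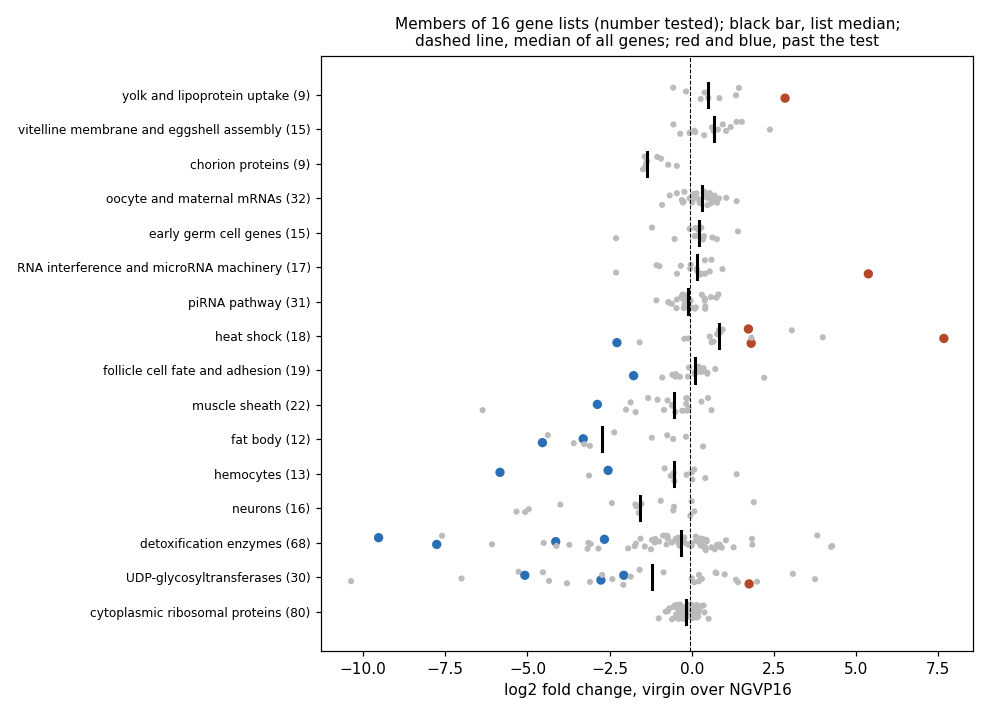
Log2 fold change (virgin over NGVP16) of each tested member of 16 gene lists; black bars are list medians, the dashed line is the median of all genes, and red and blue points passed the test. Fat body genes have the lowest list median, -2.73, with 2 called, and heat shock genes have a median of 0.83, with 3 called higher and 1 lower.

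Among the falls, NimC1, Ir76a and sordd2 were under 1 CPM in both virgin libraries. NimC1 (FBgn0259896, chromosome 2L, 13973158 to 13976769), a phagocytosis receptor of hemocytes, was at 0.209 and 0.144 CPM in the virgin libraries, from 4 and 1 counts, and at 9.76 and 13.2 CPM in the NGVP16 libraries (-5.84 ± 0.42, edgeR adjusted p = 0.0004). Ir76a (FBgn0260874, chromosome 3L, 19799278 to 19803427), a chemosensory ionotropic receptor, was at 0.417 and 0.432 CPM against 27.8 and 14.8 (-5.61 ± 0.45, edgeR adjusted p = 0.0004). sordd2 (FBgn0052581, chromosome X, 15796908 to 15799162) was at 0.261 and 0.144 CPM against 19.0 and 15.7 (-6.21 ± 0.53, edgeR adjusted p = 0.00109). The pairs lay far apart for all 3 genes, although Ir76a was higher in NGVP16 control 1 than in control 2, and the calls held without each library.

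Gal and Cadps showed the same separation at smaller size. Gal, a beta-galactosidase, was at 0.365 and 0.288 CPM in the virgin and 8.22 and 7.68 in the NGVP16 libraries (-4.50 ± 0.48, edgeR adjusted p = 0.00155). Cadps, a factor of vesicle release, was at 1.62 and 2.02 CPM against 16.6 and 19.7 (-3.34 ± 0.32, edgeR adjusted p = 0.0011). Further falls past the test were those of Cyp309a2, a cytochrome P450 (-6.02 ± 0.81), jtb (-6.14 ± 0.90) and lectin-24Db, a C-type lectin (-3.55 ± 0.53), at edgeR adjusted p of 0.0073, 0.011 and 0.00908.

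The fat body is the storage and secretory tissue of the fly. Of 12 of its genes tested, 2 passed, both lower, against 1.65% of all genes, with a median log2 fold change of -2.73 and 11 of 12 values below 0. Fbp1, the receptor that takes up larval serum proteins, was at 2.71 and 4.75 CPM in the virgin libraries and 69.8 and 99.5 in the NGVP16 libraries (-4.55 ± 0.76, edgeR adjusted p = 0.0227). Lsp2, a larval serum protein, was at 2.82 and 8.36 CPM against 55.4 and 50.4 (-3.30 ± 0.69, edgeR adjusted p = 0.0379). The pairs did not overlap for these genes. Both calls were lost without NGVP16 control 1, and that of Lsp2 also without the adult pair.

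The fat body genes as a whole took 0.0113% and 0.025% of the counts in the virgin libraries and 0.0348% and 0.0537% in the NGVP16 libraries. apolpp, the lipoprotein precursor of fat body, was at 21.5 and 68.3 CPM against 31.1 and 69.3 and overlapped between the pairs. The part of fat body tissue in these falls was not tested, and in bulk ovaries fewer cells of a type and less RNA per cell cannot be told apart.

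Hemocyte genes went in both directions. Of 13 tested, NimC1 and eater were lower and none was higher, against 1.65% and 0.352% of all genes, and the median of -0.53 reached 0.00 without NGVP16 control 2. eater, a phagocytosis receptor, was at 0.939 and 0.864 CPM in the virgin and 6.55 and 4.26 in the NGVP16 libraries (-2.54 ± 0.37, edgeR adjusted p = 0.011). Pxn, a hemocyte peroxidase of the extracellular matrix, was at 47.6 and 67.9 CPM against 12.2 and 32.2, and Hml, a hemocyte clotting protein, at 8.66 and 21.3 against 7.20 and 20.5. Pxn was thus above both NGVP16 libraries in both virgin libraries without passing the test (1.37 ± 0.42, edgeR adjusted p = 0.133), and Hml overlapped. The list took 0.248% and 0.244% of the counts in the virgin pair and 0.204% and 0.5% in the NGVP16 pair, so the summed levels overlapped. Col4a1, a collagen in the list, weighed heavily in that sum, at 1295 and 1159 CPM against 1011 and 2521. The sum therefore says little about low members such as NimC1 and eater.

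Detoxification genes encode enzymes that oxidise or conjugate foreign compounds. Of 68 tested, 4 were lower and none higher, against 1.65% and 0.352% of all genes, and all 4 encode cytochromes P450 of the Cyp6 family. Their list median was -0.31, against -0.06 over all genes. Cyp6a18 was at 0.104 and 0 CPM in the virgin libraries, from 2 counts in all, and at 29.9 and 8.26 CPM in the NGVP16 libraries (edgeR adjusted p = 0.0206). Its ratio of NGVP16 to virgin was 219, with an exact 95% interval of 60.2 to 1818. Cyp6a8 had 0 counts in both virgin libraries and was at 15.9 and 2.50 CPM in the NGVP16 libraries, at least 80.2-fold lower by the pair mean against a floor of 3 counts over the virgin pair (edgeR adjusted p = 0.0419). The exact 95% lower limit from the summed counts was 54.5, and the floor against NGVP16 control 2 alone gave at least 21.8-fold. Such intervals and floors cover counting error only.

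Cyp6g1, known for insecticide resistance, was at 1.62 and 1.59 CPM in the virgin and 45.1 and 12.2 in the NGVP16 libraries (-4.14 ± 0.83, edgeR adjusted p = 0.0407). Cyp6a23 was at 2.24 and 1.73 CPM against 10.8 and 14.8 (-2.66 ± 0.44, edgeR adjusted p = 0.0151). NGVP16 control 1 exceeded control 2 for Cyp6a18, Cyp6a8 and Cyp6g1, and their calls were lost without it, while Cyp6a23 was higher in control 2. Those of Cyp6a8 and Cyp6g1 were also lost without the adult pair.

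The organic anion transporter gene Oatp58Db had the same profile, with 1 count in each virgin library and 33.8 and 5.59 CPM in the NGVP16 libraries (edgeR adjusted p = 0.0357). Its ratio was 217.9, with an exact 95% interval of 59.9 to 1807, and the call was lost without NGVP16 control 1. Of 30 UDP-glycosyltransferases, enzymes that conjugate sugars to small molecules, 3 were lower and 1, Ugt36E1, was higher, against 1.65% and 0.352% of all genes. The list median of -1.22 changed sign when genes had to average 5 CPM, with the 4 libraries alone and without NGVP16 control 2. Ugt317A1 was the most abundant of the lower members, at 29.6 and 16.3 CPM against 126 and 67.6 (-2.07 ± 0.38, edgeR adjusted p = 0.0246).

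Metabolic genes among the largest falls were smp-30, the homologue of a mammalian calcium-binding lactonase (-5.32 ± 0.91), fiz, an oxidoreductase (-5.58 ± 1.02), ninaD, a scavenger receptor for carotenoids (-4.41 ± 0.69), Hex-C, a hexokinase (-4.37 ± 0.75), and Cyp12a4, a cytochrome P450 (-3.51 ± 0.73). Their edgeR adjusted p ran from 0.0112 for ninaD to 0.039 for Cyp12a4. In ninaD the NGVP16 libraries were alike, at 34.3 and 35.5 CPM, against 0.991 and 2.59 in the virgin libraries. For smp-30, fiz and Hex-C, NGVP16 control 1 was above control 2, at 56.4 and 24.2, 59.0 and 16.5, and 44.1 and 12.8 CPM. The calls of smp-30, fiz, Hex-C and Cyp12a4 were lost without NGVP16 control 1, and those of fiz and Cyp12a4 also without the adult pair.

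Muscle, nerve and gut genes gave 1 call in all, where 2.00% of all genes were called. The median log2 fold change of the muscle list was -0.55, with 19 of 22 values below 0. That of the neuronal list was -1.57, with 13 of 16 below 0, and turned positive without NGVP16 control 2. Some neuronal values rest on few counts, with brp at 5 and 1 in the virgin and 1 and 15 in the NGVP16 libraries. The better counted elav, at 12.1 and 14.3 CPM against 11.9 and 26.6, overlapped between the pairs. The gut median of 0.12 changed sign in 7 settings. Of 22 muscle sheath genes, TpnC47D, a troponin C, was lower, at 2.56 and 2.16 CPM in the virgin and 27.5 and 7.68 in the NGVP16 libraries (-2.87 ± 0.60, edgeR adjusted p = 0.0412; lost without NGVP16 control 1 and without the adult pair). Mhc, the muscle myosin, overlapped at 424 and 478 CPM against 273 and 716. Its log2 fold change of -0.13 was smaller in size than the list median. Other muscle members fell further without passing the test, among them sls (-1.86), Strn-Mlck (-1.71) and Mlp60A (-1.04), while 3 of the 22 were above 0. The sls pairs did not overlap, at 22.4 and 65.8 CPM in the virgin and 71.7 and 246 in the NGVP16 libraries. None of 16 neuronal or 29 gut genes was called. The gut genes took 0.00104% and 0.00615% of the counts in the virgin libraries and 0.000356% and 0.0216% in the NGVP16 libraries, highest in NGVP16 control 2. alphaTry, a gut trypsin, was at 1.36 and 1.58 CPM against 0.257 and 20.1, and Jon25Bi, a gut protease, was at 0 in all 4 libraries. Syt1, a synaptic vesicle protein, was at 0.104 and 0 CPM against 2.70 and 3.92 (edgeR adjusted p = 0.076). Of 19 follicle cell fate and adhesion genes, 1 was lower, where 1.65% of all genes were. This was cas, a zinc-finger factor, at 1.98 and 3.75 CPM against 8.35 and 10.4 (-1.77 ± 0.37, edgeR adjusted p = 0.0436).

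Some genes were present in 1 pair and absent from the other, with 0 counts in both libraries against at least 5 CPM in both. There were 4 such genes, none with a name beyond an annotation number, and they are given here after their values were seen. CR43309, a pseudogene on chromosome 3L (21829541 to 21830219), had 150 and 43 counts in the virgin libraries and 0 in the NGVP16 pair, at least 46.2-fold higher against the floor. The other three were absent from the virgin pair. CG13309 had 680 and 119 counts in the NGVP16 libraries, CG33511 had 255 and 68, and CG14568 had 72 and 74, at least 423-fold, 167-fold and 67.1-fold lower in the virgin pair by the pair mean. Against NGVP16 control 2 alone these limits were 86.4-fold, 49.4-fold and 53.7-fold. CG13309 did not pass the test across genes (edgeR adjusted p = 0.0533).

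The 216 genes were chosen by their difference between the young control pairs, and their levels in the knockdowns are a description. The median level of the 178 lower genes was 0.887 and 0.792 CPM in the virgin libraries and 13.4 and 9.26 in the NGVP16 libraries. It was 28.4 and 21.5 CPM in SETDB1 GKD, 49.2 and 44.6 in wde GKD, and 17.1 and 18.3 in Nup154 GKD. The virgin pair was thus the lowest of the 5 sets for these genes. The 38 higher genes had a median of 50.5 and 41.5 CPM in the virgin and 10.9 and 10.3 in the NGVP16 libraries, against 23.1 to 54.3 in the knockdowns, so there the NGVP16 pair was the lowest set.

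Dcr-2 had its highest level in the virgin pair and its lowest in the NGVP16 pair. It was at 777 and 848 CPM in SETDB1 GKD, 195 and 246 in wde GKD, and 421 and 407 in Nup154 GKD, all well under the virgin libraries, and the wde GKD values were near that of NGVP16 control 2. Oat was at 83.1 and 95 CPM in SETDB1 GKD and 132 and 124 in Nup154 GKD, within or near the virgin range, and at 41.5 and 28.3 in wde GKD, between the control pairs. Fbp1 was at 68.2 to 290 CPM in SETDB1 GKD and wde GKD but at 0.41 and 0.318 CPM in Nup154 GKD, under both virgin libraries.

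**Figure D4:**
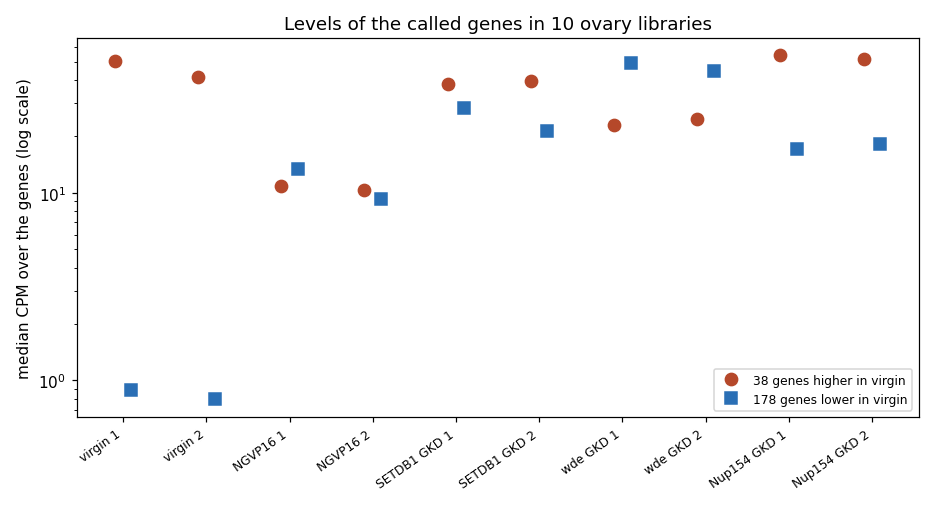
Median level of the 38 higher and 178 lower genes in each of 10 libraries, in CPM on a log axis; each point is 1 library. The lower genes sit under 1 CPM in both virgin libraries and above 9 CPM in all others, and the higher genes sit near 10 CPM in both NGVP16 libraries and above 20 CPM in all others.

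Called genes were found on every major chromosome arm and on chromosome 4. The share of tested genes called was 1.36% on X, 2.79% on 2L, 1.49% on 2R, 1.88% on 3L, 2.49% on 3R and 2.22% on chromosome 4, with 2 calls there. Along the arms, 21 of them lay next to a called gene of the same direction, in 10 runs. Only 4 of them were higher genes, 11.1% of those with a position, against 0.681% of all tested genes that lay beside a higher gene. The other 17 were lower genes, 9.55% of those with a position, against 3.27% beside a lower gene. The longest run held 3 genes, CG8837, CG33281 and CG33282 on 2L. Others were PGRP-LA with PGRP-LC, CG9512 with fiz on X, and mfas with CG3397 on 3R. The odorant-binding protein genes Obp83cd and Obp83ef on 3R also lay together and overlap in position. Of the 216, 72 overlap a gene on the opposite strand and 16 a gene on their own strand. These were 33.6% and 7.48% of those annotated, against 44.8% and 12.3% of all tested genes.

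The libraries of a pair differed from each other with gene length. Across 6452 genes of at least 10 CPM, the log2 ratio of NGVP16 control 1 to control 2 fell with exon length, with a Spearman's rho of -0.83, and across 6170 genes the virgin ratio had a rho of -0.63, genes not being independent replicates. Among the shortest 25% of genes the median ratio was 0.94 for NGVP16 and 0.35 for virgin, and among the longest 25% it was -1.17 and -0.37. Short genes were thus higher in NGVP16 control 1 and long genes in NGVP16 control 2. Cytoplasmic ribosomal protein genes, which are short, took 24.8% and 9.77% of the counts in NGVP16 controls 1 and 2 and 16.6% and 13.2% in virgin controls 1 and 2. None of the 80 tested was called, where 2.00% of all genes were. Their median of -0.18 turned positive without NGVP16 control 1 and with the length trend removed. With the length trend removed, 167 genes were higher and 264 lower, so 38.7% of the calls were rises instead of 17.6%.

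**Figure D5:**
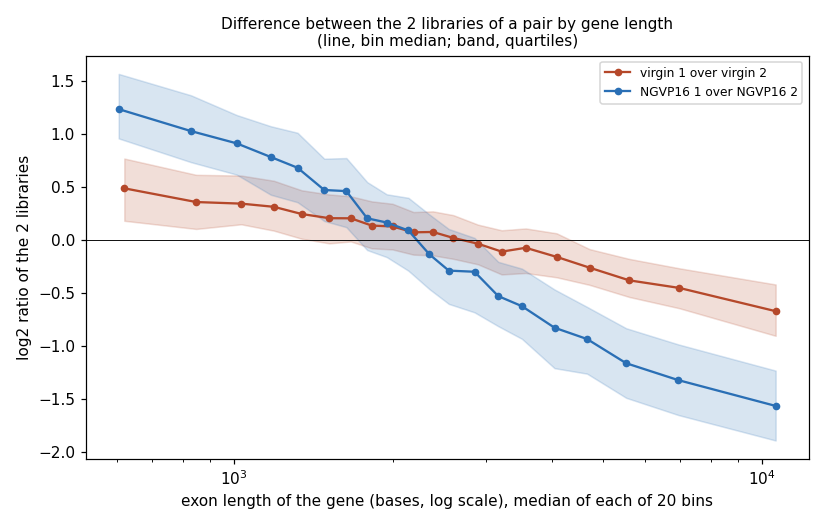
Log2 ratio of the 2 libraries of each pair against exon length, in 20 bins of genes of at least 10 CPM; lines are bin medians and bands are quartiles. Both lines fall from short to long genes, and the NGVP16 line falls more steeply.

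A few genes lay far outside that trend, and those at least 20-fold apart within a pair with at least 50 CPM in the higher library are named here after their values were seen. In the virgin pair there were 3. bru3 (FBgn0264001, chromosome 3L, 13521907 to 13803400), an RNA-binding protein gene of the Bruno family, was at 19.4 CPM in virgin control 1 and at 11190.5 CPM in virgin control 2, from 372 and 77676 counts. It was at 79.9 and 33.6 CPM in the NGVP16 libraries and at 181 to 311 CPM in the knockdowns. Outside the adult pair, virgin control 2 was thus the only high library. Within the adult pair, bru3 was at 4.79 CPM in adult control 1 and 1730 CPM in adult control 2. CG7695 was at 0.783 and 69.7 CPM, and AttC, an antimicrobial attacin, at 1.25 and 51.0 CPM. All 3 were higher in the library whose title does not name Dcr, and none passed the test between the pairs.

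In the NGVP16 pair there were 6 such genes, 3 higher in each library. Cp15 and Cp18, chorion proteins of late follicle cells, were at 203 and 140 CPM in NGVP16 control 1 and at 7.68 and 4.00 in control 2. Mal-A1, a maltase, was at 0 CPM in control 1 and 82.9 in control 2. CG14245 was higher in control 1, and CG10911 and the ribosomal RNA pseudogene 28SrRNA-Psi:CR41609 in control 2. Late chorion genes and Mal-A1 thus marked opposite libraries of the pair.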

How the data were processed

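Whole-number counts per FlyBase gene were used as deposited by the authors, with 1 file per library and no normalization. Per the submitters' processing notes, HISAT2 2.1.0, featureCounts 1.4.6, DESeq2 1.24.0 and the build dm6 were used; the sources used here give no roles, annotation release or strand setting. Per the labels' protocols, TRIzol or phenol-chloroform extraction, DNase and poly(A) selection beads preceded a directional library kit. Symbols and positions came from Ensembl release 115 (BDGP6), which named 16647 of 17023 identifiers.

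Counts of all 12 libraries were fitted with edgeR 4.0.16 in R 4.3.3 (filterByExpr, TMM, 1 mean per set, robust quasi-likelihood F test, Benjamini-Hochberg adjustment over all genes tested), which gave 6 residual degrees of freedom. SE is the log2 fold change over the square root of F and is approximate. The fit was run on simulated counts with less spread than these data and no length trend within pairs. That run does not measure the error of the calls here. The members and the 36 gene lists were chosen with earlier results of these data known, and lists are described without a set test. Genes were named by size (the 15 largest rises and 15 largest falls of at least 10 CPM in the higher set with no overlap), by list (up to 4 members) and as driver or target genes; members outside the rule are given as examples of their list. Symbols that are only annotation numbers were left out, except among the 17 most stable calls, neighbouring genes, genes absent from 1 pair and genes far apart within a pair. Alternatives covered scaling, filters, DESeq2 1.42.0, limma-voom (limma 3.58.1), gene length, a 2-fold limit, the libraries fitted and each library left out.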

Additional observations from a re-analysis of the deposited data

Results flagged for a closer look

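Signal outside the comparison stood out in the adult pair, which the comparison uses only through the shared spread, the filter and the scaling. The 358 antisense RNA genes took 39.1% of the counts in adult control 1 and 40.7% in adult control 2, against at most 0.0182% in the other libraries. RpL32, a ribosomal protein gene, had 1 and 4 counts there. The kit is directional per the labels' protocols, and the strand setting of the counts is not given in the sources.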

How the results depend on the processing

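Against 216 calls (38 higher, 178 lower), ribosomal protein scaling gave 58 (6 and 52), the DESeq2 Wald test 908 (185 and 723), a 2-fold limit 61 (11 and 50), removal of the length trend 431 (167 and 264) and the 4 libraries alone 0 (0 and 0); limma-voom gave 58 higher. Fits without 1 library gave 24 to 2205 calls, 7 to 1261 higher and 17 to 944 lower. An alternative chosen after seeing the data, without the adult pair and NGVP16 control 1, gave 328 (64 and 264). The cause of these shifts was not tested. None of the 216 changed sign in any setting. All 216 were at least 2-fold apart with no overlap of the pairs, so their selection left little room for a change of sign. DESeq2 size factors, upper quartile scaling and ribosomal protein scaling moved the median of all genes to -0.16, -0.19 and -0.22. Of the genes named outside the calls, wde changed sign by limma-voom (0.20), without virgin control 1 (0.0071) and without NGVP16 control 2 (1.07). Its values without 1 library ran from -0.69 to 1.07, and it was at -0.73 without the adult pair and NGVP16 control 1. egg changed sign without NGVP16 control 1 (-0.0449, or -0.0907 with the adult pair also left out) and rose to 1.03 without control 2. Of 683 values of 43 named called genes under alternatives, 451 kept their call and 232 lost it. No paired analysis was possible because the virgin titles carry no replicate numbers.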
